A study of Sus scrofa with 22 samples.

Results

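The genes examined here make up the MHC class I presentation route in the endometrium of the pig on Day 12. The members were chosen by name, as the class I genes of the swine leukocyte antigen (SLA) complex and the genes that produce and load their peptides, provided that they appear in at least 1 of the 3 deposited count tables. They are 10 symbols, namely SLA-1, SLA-2, SLA-3, SLA-5, B2M, TAP1, TAP2, TAPBP, PSMB8 and PSMB9. They correspond to 11 gene IDs, because the NCBI annotation holds 2 gene models with the symbol B2M, out of 12401 genes listed in at least 1 table. PSMB9 was listed only for the luminal epithelium, and the other 10 gene IDs were listed for all 3 cell types.

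The libraries were made by RNA-seq from cells captured by laser microdissection (LCM) of frozen endometrium, namely the epithelium lining the lumen (LE), the epithelium of the glands (GE) and areas of stroma (S). The pregnant group consisted of inseminated gilts whose uterine flush held filamentous conceptuses, and the control group of cyclic gilts that received the supernatant of centrifuged semen. All gilts were crossbreeds of German Landrace and Piétrain with an ovulation synchronized by PMSG and hCG, and all were slaughtered on Day 12. There were 22 libraries from 8 gilts, with 4 pregnant and 4 control libraries each for LE and GE and 3 of each for S.

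In class I presentation, the proteasome cuts cytosolic proteins into peptides, and PSMB8 and PSMB9 are catalytic subunits that replace constitutive ones in the immunoproteasome. The transporter formed by TAP1 and TAP2 carries the peptides into the endoplasmic reticulum, where TAPBP (tapasin) holds the class I heavy chain ready for loading. The heavy chain reaches the cell surface paired with beta-2-microglobulin, the product of B2M, and is read there by cytotoxic T cells and natural killer cells. Around Day 12 the endometrium faces an elongating conceptus that carries paternal antigens and secretes estradiol and, in the pig, interferons.

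The class I heavy chain genes lie close together on chromosome 7 and are much alike, which matters for every count below. In the Sscrofa11.1 annotation SLA-1 spans chr7:22824137-22920154, SLA-2 chr7:22916747-22959405, SLA-3 chr7:22938211-22942735 and SLA-5 chr7:22851888-22854782, all on the plus strand, so that SLA-3 lies within the span of SLA-2 and SLA-5 within that of SLA-1. Over coding exon 4, SLA-1, SLA-2 and SLA-3 differ pairwise at 2 to 5 positions. A run of 145 bases in this exon is the same in all 3 genes, in SLA-3 at chr7:22940197-22940341. It is shown because a read from it cannot be assigned to 1 gene.
shared run of coding exon 4: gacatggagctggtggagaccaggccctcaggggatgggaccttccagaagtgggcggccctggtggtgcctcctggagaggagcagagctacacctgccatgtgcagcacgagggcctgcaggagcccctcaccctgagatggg

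Coding exons 2 and 3 encode the part of the heavy chain that forms the peptide groove, and here the genes differ more. In exon 2 (270 bases) SLA-1 and SLA-3 are identical at 94.1% of positions, and in exon 3 at 88.8%. The 60 bases of exon 2 with the most differences are shown for the plus strand, at chr7:22825012-22825071 for SLA-1, chr7:22956598-22956657 for SLA-2 and chr7:22938879-22938938 for SLA-3, with capitals at the 10 positions where the 3 genes are not all the same.
SLA-1: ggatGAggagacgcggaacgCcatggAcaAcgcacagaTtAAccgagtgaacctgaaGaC
SLA-2: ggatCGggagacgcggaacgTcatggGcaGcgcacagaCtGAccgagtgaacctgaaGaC
SLA-3: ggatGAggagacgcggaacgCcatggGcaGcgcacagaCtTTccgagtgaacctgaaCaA

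Of all 50-base windows of its exons, SLA-3 shares 9.34% exactly with another gene, SLA-1 25.2%, SLA-2 15.9% and SLA-5 31.9%. Pigs carry many class I alleles, and the reference holds 1 allele of each gene, so that the split of counts among the heavy chains of a gilt depends on its own alleles as well. For B2M, every 50-base window of the shorter model (chr1:126865767-126878501, minus strand) also lies in the longer one (chr1:126837721-126844043, minus strand). How reads in such regions were assigned is not given in the sources used here, and the 2 B2M models are therefore also reported as a sum.

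A stretch before annotated transcript starts of the heavy chain genes where regulatory letters lie together is shown next, since SLA-3 was called in LE and SLA-1, SLA-2 and SLA-5 were not. The motifs searched on both strands were the core of the interferon-stimulated response element (GAANNGAAA), a kappaB-like site (GGGANTCCC), the core of the gamma-activated sequence (TTCNNNGAA) and the CCAAT box. Capitals mark matches to the first 2 of them in 30 bases of the plus strand, at chr7:22824246-22824275 for SLA-1, chr7:22955966-22955995 for SLA-2, chr7:22938110-22938139 for SLA-3 and chr7:22851676-22851705 for SLA-5.
SLA-1: GGGAGTCCCcgtgtccccagTTTCACTTCt
SLA-2: GGGAGTCCCcgtgtccccagTTTCACTTCt
SLA-3: GGGAGTCCCcgtgtccccagTTTCACTTCt
SLA-5: tggagtccccgtgtccccagTTTCACTTCg

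SLA-1, SLA-2 and SLA-3 have the same 30 bases here, and SLA-5 holds the interferon element without the kappaB-like letters. Among 19545 promoter windows of 250 bases in the annotation, 6.34% held the interferon element, 0.762% the kappaB-like site, 6.11% the gamma-activated core and 31.9% a CCAAT box. For SLA-1 and SLA-2 the stretch lies within the gene span given above, before the start of single transcripts and not before the gene's outermost start. These matches are letters in the reference and not measured binding. Only the letters given above were searched, so that other spellings of such sites would be missed. Of the other members, TAP2 held the interferon element in the window of 1 transcript. TAP1 and PSMB9 start on either side of an interval of 143 bases (chr7:25071990-25072132) and are read away from each other. No match to the 4 motifs was found within this interval. The 250-base windows of 1 transcript of TAP1 and of PSMB9 each held a CCAAT box outside it.

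Totals on listed genes lay between 893912 counts (pregnant LE of gilt 01) and 4020796 counts. Detection ended at about 3 counts, or 0.69 to 3.5 counts scaled to a common library total (CPM), a limit that covers counting error only. LCM captured mixed areas. The summed level of 8 epithelial markers (EPCAM, CDH1, KRT8, KRT18, KRT7, KRT19, CLDN3 and CLDN4) lay between 2642 and 3298 CPM in control S, against 2884 to 3581 CPM in control LE and 814.3 to 2311 CPM in control GE. The summed level of 7 fibroblast markers, among them COL1A1, lay between 7443 and 19660 CPM in the LE libraries, between 4279 and 46740 CPM in control GE, between 10230 and 29390 CPM in pregnant GE and between 4696 and 8469 CPM in control S. Smooth muscle markers reached 8147 CPM in 1 control GE library, against a median of 223.3 CPM in that group. The label S was therefore not separated from epithelium by these markers in the control group, and LE and GE held transcripts of connective tissue.

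Of the heavy chains, SLA-3 rose in LE of pregnant gilts. In the 4 control LE libraries, SLA-3 had normalised read counts of 148.9, 235.1, 245.3 and 269.9 CPM, and in the 4 pregnant LE libraries 485.7, 649.4, 673 and 711.7 CPM. Every pregnant library was above every control library, and the lowest pregnant value belonged to the smallest library (gilt 01, with 416 counts for SLA-3). The mean increased from 224.8 ± 52.65 to 629.9 ± 99.55 CPM (SD, n = 4 each). The log2 fold change (FC, pregnant/control) was 1.49 with a standard error of 0.22 (edgeR quasi-likelihood test, FDR 0.0012 over all 11415 genes listed for LE). An FDR below 0.01 was the condition for a call in LE, and SLA-3 was the only one of 11 member gene IDs to meet it, in a comparison in which 10.0% of all listed genes were called with 6.33% called higher and 3.71% lower in pregnancy. The count of 1 of 11 is thus close to the background. The call of SLA-3 was kept in all 17 alternatives in which it was tested as a gene of its own, with log2 FC from 1.30 to 1.59 and FDR from 1.2e-09 to 0.00739.

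**Figure D1:**
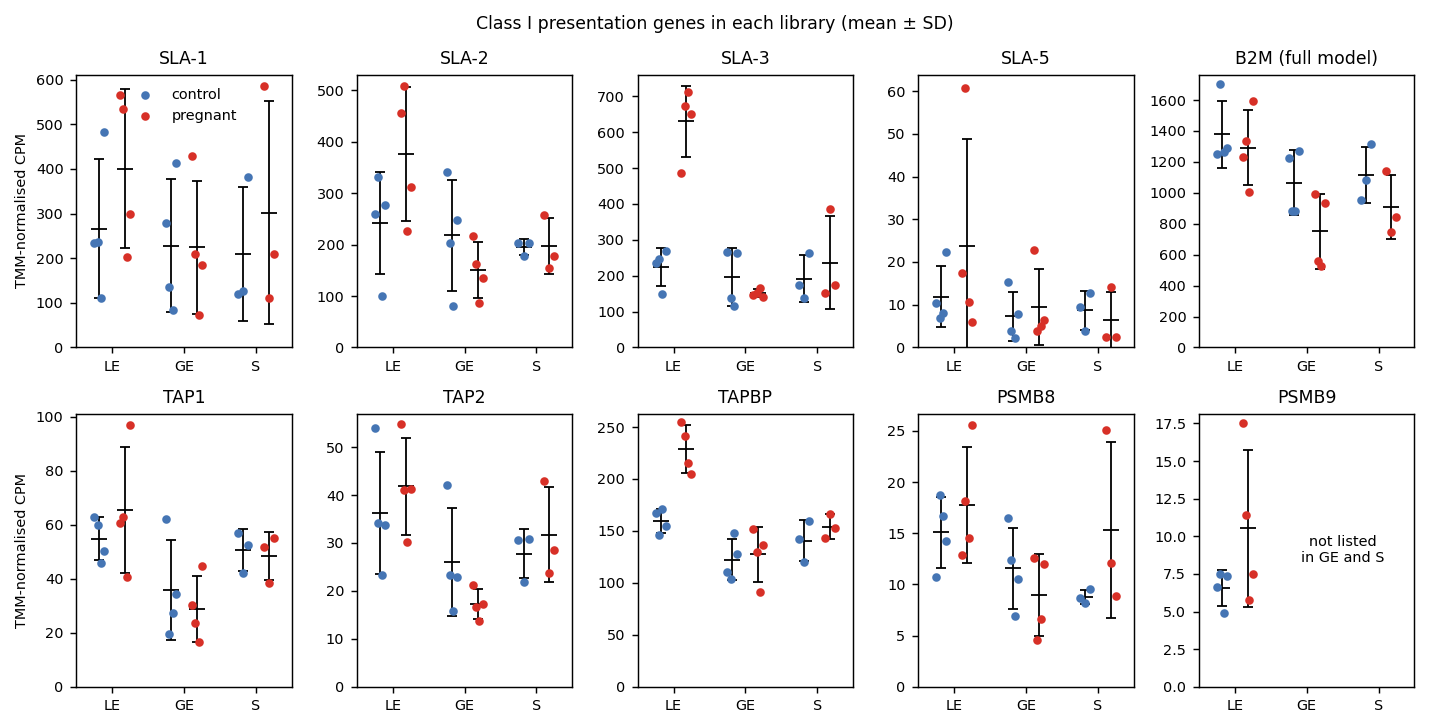
Each point is 1 library, the vertical axes give TMM-normalised CPM, and the bars are the mean ± SD of the control (blue) and pregnant (red) libraries in LE, GE and S. SLA-3 and TAPBP in LE are the panels in which the pregnant libraries lie apart from the control libraries, whereas the groups overlap for SLA-1, SLA-2 and B2M.

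SLA-1 and SLA-2 had higher means in pregnant LE but did not pass the test. SLA-1 had 111.7, 234.7, 236.2 and 483.7 CPM in control LE and 203.2, 299.9, 534.4 and 566.2 CPM in pregnant LE, with a log2 FC of 0.58 (SE 0.44, FDR 0.377). SLA-2 had 100.9, 260.2, 277.8 and 332.1 CPM in control LE and 226.1, 311.7, 456.5 and 509.4 CPM in pregnant LE, with a log2 FC of 0.63 (SE 0.36, FDR 0.245). The groups overlapped for both genes, and control gilt 13 was above pregnant gilts 05 and 14 for SLA-1. SLA-5 was the least abundant of the 4 heavy chains among the members, with 5.935 to 60.76 CPM in LE and 15 to 117 counts in a library. The annotation splits the only SLA-5 model into 19 coding pieces, against at most 8 in the models of SLA-1, SLA-2 and SLA-3. The part of this in the low level of SLA-5 was not tested. The log2 FC of SLA-5 in LE of 0.96 (SE 0.67, FDR 0.344) rested on pregnant gilt 03 and was -0.20 without this gilt.

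Because reads of the heavy chains can be mistaken for each other, the 4 genes were also summed. The sum lay between 369.5 and 1054 CPM in control LE and between 1151 and 1778 CPM in pregnant LE, and the groups did not overlap. The log2 FC of the sum was 0.94 (SE 0.30), and with an FDR of 0.0446 it did not pass the threshold of 0.01. The call in LE was thus made for SLA-3 as counted. That the sum was not called does not show that the heavy chains together were unchanged. With 2 neighbouring gene models annotated as class I (LOC100513601 and LOC100515902) added, a sum chosen after the values were seen, the log2 FC was 0.85 (SE 0.29, FDR 0.0595).

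B2M was the most abundant member and was nearly level between the groups in LE. The 2 B2M models together had 2241 ± 334.9 CPM in control LE and 2163 ± 384.5 CPM in pregnant LE (SD, n = 4 each), a log2 FC of -0.05 (SE 0.20). Taken apart, the longer model had a log2 FC of -0.09 (SE 0.20) and the shorter one of 0.01 (SE 0.19). The shorter model held between 36.4 and 43.7% of the counts of both in the 22 libraries, so that the split between them hardly differed from library to library. The class I heavy chain sum in LE thus stood at 746 ± 284.1 CPM beside this B2M level in the control group and at 1431 ± 279.6 CPM in the pregnant group.

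Of the peptide transporter and loading genes, TAPBP came closest to a call in LE. TAPBP had 146.2, 154.6, 167.2 and 170.9 CPM in control LE and 204.6, 214.9, 241 and 254.5 CPM in pregnant LE, and the groups did not overlap. Such a separation with higher levels in pregnancy was found for 14% of all genes listed for LE. The log2 FC of TAPBP was 0.52 (SE 0.15), and its FDR of 0.0293 was above the threshold of 0.01. It was 0.00321 with the Wald test of DESeq2, and between 0.00321 and 0.101 over all alternatives. Of the exon bases of TAPBP, 12.5% overlap with ZBTB22 on the same strand.

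TAP1 and TAP2 did not pass the test in LE, with log2 FC of 0.26 (SE 0.25, FDR 0.508) and 0.18 (SE 0.28, FDR 0.675). TAP1 ranged from 45.94 to 63.1 CPM in control LE and from 40.81 to 97.14 CPM in pregnant LE, and without gilt 14, which had the highest value, the log2 FC was -0.02. TAP2 ranged from 23.32 to 53.88 CPM in control LE and from 30.23 to 54.87 CPM in pregnant LE. The immunoproteasome subunits were low. PSMB8 had 15.09 ± 3.445 CPM in control LE and 17.79 ± 5.674 CPM in pregnant LE (log2 FC 0.26, SE 0.29, FDR 0.558), and PSMB9 had 6.59 ± 1.204 and 10.54 ± 5.217 CPM (log2 FC 0.57, SE 0.39, FDR 0.324). PSMB9 was counted with only 14 to 32 reads in any LE library.

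Over all members in LE, 10 of 11 log2 FC were above 0, with a median of 0.52 against 0.01 for all listed genes, and 2 of 11 members had an unadjusted p value below 0.05, compared with 35.6% of all listed genes. The standard errors of SLA-1, SLA-2, SLA-5 and PSMB9 (0.36 to 0.67) were larger than those of SLA-3 and TAPBP, and their differences were not detectable beyond the spread between gilts. Markers of other cell types also differed in LE. The summed level of the 4 listed leukocyte markers (PTPRC, CD163, CSF1R and LAPTM5, of 13 fixed) was 146.2 to 246.7 CPM in control LE and 267.4 to 312.3 CPM in pregnant LE, LAPTM5 rose (71.21 to 229.3 CPM on average, FDR 2.33e-04) and the other 3 had log2 FC from -0.90 to -0.75 and were not called. Of the epithelial markers CDH1, CLDN3 and CLDN4 rose and KRT7, KRT8 and KRT19 fell in pregnant LE. For blood endothelium, 5 of 6 markers had log2 FC above 0 and none was called, with the largest for PECAM1 (70.64 ± 14.02 to 134.1 ± 45.54 CPM, log2 FC 0.91, FDR 0.0253, groups without overlap). The smooth muscle marker ACTA2 had a log2 FC of 4.06 (SE 1.17, FDR 0.0311) with overlapping groups. The T cell and B cell markers CD3D, CD3E, CD8A, CD2 and CD79A were not listed for any cell type. The part of these cells in the level of SLA-3 was not tested, and in captured areas fewer cells of a type and less RNA per cell cannot be told apart.

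**Figure D2:**
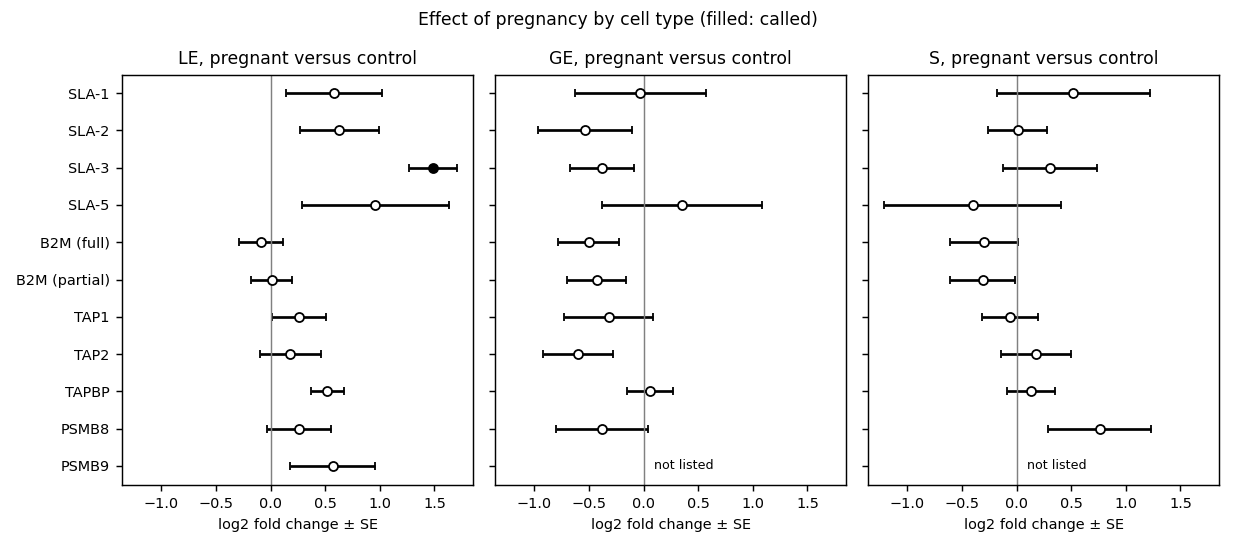
Points give the log2 fold change of pregnant against control (horizontal axis) and bars the standard error for each member in LE, GE and S, and filled points are called. SLA-3 in LE at 1.49 is the only filled point, most LE points lie right of 0, and most GE points lie left of 0.

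In GE none of the members was called. The condition for a call in GE and S was an unadjusted p value below 0.0021, which 0.694% of all 11676 genes listed for GE met, and DESeq2 also called none of the 10 member gene IDs. None of the 10 had an unadjusted p value below 0.05, against 8.09% of all listed genes, and the groups overlapped for all 10, where 2.72% of all genes were separated with higher and 2.20% with lower levels in pregnancy. The log2 FC was below 0 for 8 of 10, with a median of -0.38 (all genes -0.02). SLA-3 had 116.3, 138.8, 264.2 and 266.1 CPM in control GE and 140.3, 144.9, 153.1 and 164.9 CPM in pregnant GE, so that the pregnant libraries lay within the range of the control libraries (log2 FC -0.38, SE 0.29, FDR 0.773). SLA-1 was nearly the same on average, with 227.8 ± 149.5 CPM in control GE and 224 ± 149 CPM in pregnant GE. For B2M, the sum of both models had means of 1722 ± 329.2 and 1239 ± 387 CPM (log2 FC -0.48, SE 0.29, FDR 0.723), and for TAP2 the log2 FC was -0.60 (SE 0.32, FDR 0.702). TAPBP, separated in LE, had overlapping groups in GE, with a log2 FC of 0.06 (SE 0.21, FDR 0.956).

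In S again no member was called, by edgeR or by DESeq2, where 1.47% of 11532 listed genes met the p value of 0.0021. None of the 10 listed members had an unadjusted p value below 0.05, against 12.5% of all genes, and the groups overlapped for all 10, where 8.18% of all genes were separated with higher and 9.38% with lower levels in pregnancy. The median log2 FC of the members was 0.07 (all genes 0.08). SLA-3 had 136.5, 172.8 and 263.9 CPM in control S and 150.5, 174.3 and 385.1 CPM in pregnant S. The high value belonged to gilt 05, and without this gilt the log2 FC of 0.31 (SE 0.43, FDR 0.843) was -0.24. SLA-2 was alike in both groups of S (194.9 ± 15.22 and 196.8 ± 54.46 CPM, SD, n = 3 each, log2 FC 0.01, SE 0.27). PSMB8 had the largest log2 FC of the members in S (0.76, SE 0.47, FDR 0.574), which came from 25.08 CPM in gilt 01 (31 counts), whereas the other 2 pregnant libraries had 8.884 and 12.05 CPM. The summed levels of fibroblast markers in pregnant S had a minimum of 8192, a median of 12060 and a maximum of 61860 CPM, overlapping with control S at up to 8469 CPM, and those of lymphatic endothelium were 27.57 to 251.6 CPM in pregnant and 4.967 to 7.874 CPM in control S. Their part in the member levels in S was not tested.

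In most control gilts the make-up of the heavy chain counts was similar across cell types. In control gilt 13, SLA-1 had 45.9, 44.4 and 44.3% of the class I SLA counts in LE, GE and S, and in control gilt 04 SLA-2 had 40.5, 42.2 and 40% in the same order. Control gilt 06, without an S library, had 40.3% SLA-3 in LE and 41.2% in GE. Control gilt 02 departed from this for SLA-1, with 31.7, 31 and 23.6% in LE, GE and S.

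In pregnant gilts 01 and 14 the make-up differed between LE and both other cell types. SLA-3 had 51.3% of the class I SLA counts in LE of gilt 14 but 30% in GE and 30.9% in S, and 31.8% in LE of gilt 01 but 17.8 and 15.1%. In gilt 03 the share of SLA-3 was 37.9% in LE and 28.9% in GE. Gilt 05 had the highest shares of SLA-3 in every cell type (61.8, 50.1 and 58%), with LE close to S. The share of SLA-3 in LE was above that in GE in all 4 pregnant gilts, while in the control gilts it was 31.8 and 29.5% (gilt 02), 29.9 and 28.9% (gilt 04), 40.3 and 41.2% (gilt 06) and 25.6 and 28.3% (gilt 13).

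**Figure D3:**
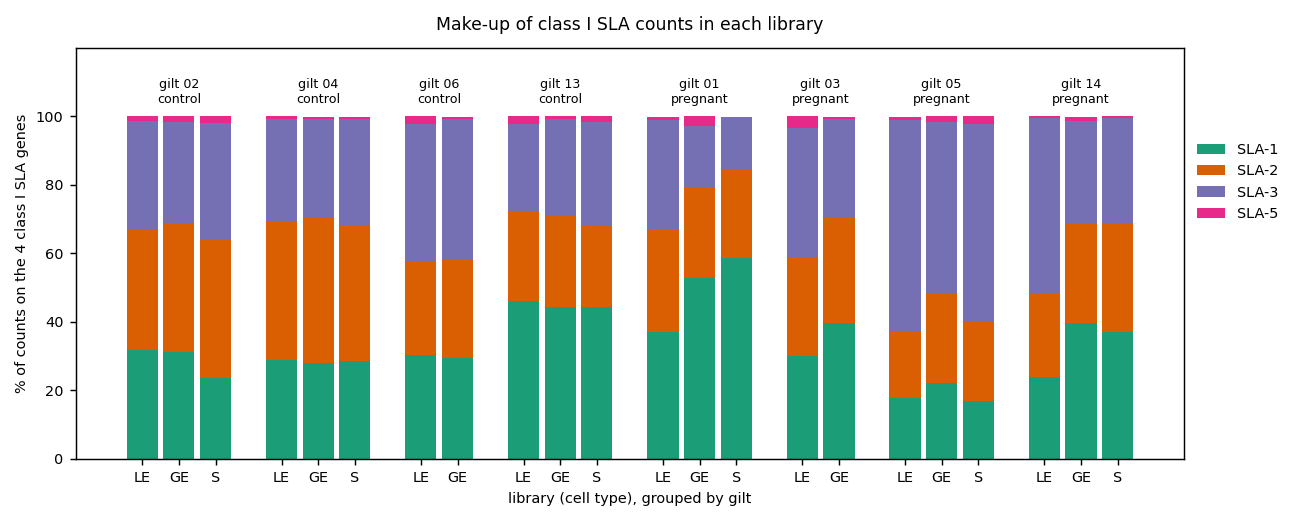
Stacked bars give the share of each of the 4 class I SLA genes (vertical axis, % of their summed counts) in each library, grouped by gilt. The SLA-1 part of control gilt 13 is 44.3 to 45.9% in all 3 cell types, and in pregnant gilts 01 and 14 the SLA-3 part is larger in LE than in GE or S (gilt 03, without S, larger than in GE).

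Levels were compared between the cell types within gilts, in a fit of all 22 libraries over the 10643 genes listed for all 3 cell types with the gilt as a block and averaged over pregnant and control gilts. On this average, all 10 members had lower levels in GE than in LE, with a median log2 difference of -0.78 (all genes -0.02). Of them, 8 passed an FDR of 0.01, where 20.8% of all genes were called and 10.4% with lower levels in GE. An unadjusted p value below 0.05 was found for 9 of 10 members and 45.2% of all genes. SLA-3 had the largest difference (-1.16, SE 0.15, FDR 1.29e-04), and GE levels were 0.214 to 0.29 of the LE levels in the 4 pregnant gilts and 0.579 to 1.09 in the 4 control gilts. TAP1 (-0.96, SE 0.15, FDR 5.04e-04) and TAP2 (-0.89, SE 0.11, FDR 1.35e-04), the subunits of the peptide transporter, were lower in GE in 8 of 8 gilts. The other calls were SLA-2 (-0.77), SLA-1 (-0.64), TAPBP (-0.63) and both B2M models (-0.61 and -0.65). For SLA-2 the ratios of GE to LE were 0.324 to 0.461 in pregnant and 0.624 to 1.26 in control gilts. For SLA-1 they were 0.358 to 0.737 and 0.582 to 1.15. In control gilt 02, SLA-1 (1.15), SLA-2 (1.26), SLA-3 (1.09), SLA-5 (1.42) and PSMB8 (1.49) were higher in GE than in LE. PSMB8 (-0.78, SE 0.25, FDR 0.0279) and SLA-5 (-0.93, SE 0.50, FDR 0.164) did not pass. The number of calls was 5 without the block, 5 without gilt 04 and 5 when only the 6 gilts with an S library were used. On leaving out single gilts, SLA-2, SLA-3, TAP1, TAP2 and TAPBP stayed called in 8 of 8 fits and the shorter B2M model in 7 of 8. The longer B2M model stayed called in 3 of 8 (FDR up to 0.0373, lost without gilt 03, 04, 05, 06 or 14) and SLA-1 in 2 of 8 (FDR up to 0.0389, kept only without gilt 01 or 02).

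In S all 10 members were again lower than in LE, with a median log2 difference of -0.60 (all genes -0.03), but only SLA-3 (95% confidence interval -1.35 to -0.64, FDR 0.00475) and SLA-2 (-0.72, SE 0.13, FDR 0.0069) passed the FDR of 0.01. Across all genes 1.69% were called, 0.0846% with lower and 1.61% with higher levels in S, and 8 of 10 members had an unadjusted p value below 0.05, against 27.5% of all genes. SLA-2 and SLA-3 were lower in S than in LE in 6 of 6 gilts, with ratios of 0.526 to 0.76 for SLA-2 and 0.265 to 0.965 for SLA-3. Without the block neither was called, and leaving out single gilts left 0 or 1 call, with none left without gilt 01, 04, 05 or 14. No member was called between S and GE (0% of all genes), although TAP1 (0.62, SE 0.17, FDR 0.181), TAP2 (0.39, SE 0.13, FDR 0.221) and TAPBP (0.27, SE 0.12, FDR 0.347) had unadjusted p values below 0.05 with higher levels in S, against 13.2% of all genes with such a p value. Beside these differences, of the marker lists, blood endothelium had lower levels in GE than in LE for 6 of 6 markers (EMCN and KDR called), leukocytes for 4 of 4 (LAPTM5 called), and epithelium for 6 of 8, with KRT7, KRT8 and KRT19 called, 2 of them lower and 1 higher in GE. Class II genes, carried mainly by antigen-presenting cells, were lower in GE for 8 of 8, with SLA-DRA, SLA-DQA1, CTSS, IFI30 and CD74 called. Genes of the proteasome and its activators were lower in GE for 19 of 20 (median -0.53), with 8 called, PSMB10, PSME1 and PSME2 among them. Peptide loading and trimming genes were lower for 9 of 16, with 1 called lower and 3 higher. For GE against LE, 20.8% of all genes were called, 10.4% with lower and 10.4% with higher levels in GE. Fibroblast markers were higher in GE for 5 of 7 and smooth muscle markers for 3 of 3, with none called. In S against LE, leukocyte markers were lower for 4 of 4 (LAPTM5 called), blood endothelium for 6 of 6 (median -0.83), class II genes for 8 of 8, fibroblasts for 6 of 7 and smooth muscle for 3 of 3. Proteasome and activator genes were lower in S for 20 of 20 (median -0.39, none called), and peptide loading and trimming genes for 9 of 16. The part of other cells in the differences of GE and S from LE was not tested.

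For the members listed for all 3 cell types, and per kilobase of exon, the order of levels in control LE ran from B2M (1708 CPM per kb for the shorter and 1202 for the longer model) over SLA-1 (133.1), SLA-2 (112), SLA-3 (73.82), TAPBP (45.3), TAP1 (19.45) and PSMB8 (12.67) to SLA-5 (11.5) and TAP2 (11.45). PSMB9, listed for LE only and normalised there, had 4.466 to 6.857 CPM per kb in control LE. The ranges of SLA-1, SLA-2 and SLA-3 overlapped, as did those of PSMB8, SLA-5 and TAP2. In pregnant LE the levels of SLA-3 (207.6 CPM per kb), SLA-1 (201.4) and SLA-2 (174.3) lay close together, and in pregnant GE SLA-3 (49.38) lay below SLA-1 (111.2) and SLA-2 (69.06).

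Whether pregnancy acted differently on LE and GE was tested directly. For SLA-3 the effect of pregnancy in LE exceeded that in GE by 1.80 on the log2 scale (SE 0.29, 95% confidence interval 1.17 to 2.42, FDR 0.00805), where 0.395% of all genes were called in either direction and 0.150% in this one. The difference lay between 1.66 and 1.98 in 16 alternatives, but the call was not kept in most of them. It was kept in 4 of the 16, with FDR values from 2.87e-06 to 0.0624, and was lost without the block, with a random block, with library size alone as normalization, in the 6 gilts with an S library and on leaving out any 1 of the 8 gilts (FDR 0.0171 to 0.0402). SLA-2 (1.13, SE 0.23, FDR 0.0198) and TAP2 (0.77, SE 0.23, FDR 0.0812) had the next smallest FDR. All 10 differences were above 0, with a median of 0.61 against 0.03 for all genes. That of SLA-5 (0.16, SE 1.02) turned below 0 with DESeq2 and in the 6 gilts. Differences above 0 were not particular to the members. They were found for 8 of 8 class II genes (median 1.01) and 19 of 20 genes of the proteasome and its activators (median 0.29), with none called. Of the peptide loading and trimming genes, 4 of 16 lay above 0 (median -0.15). For the sum of the class I heavy chains the difference was 1.22 (SE 0.28, FDR 0.0326), which did not pass the threshold of 0.01. The comparisons of LE and GE within a gilt share the gilt, and the members are no independent replicates of each other.

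**Figure D4:**
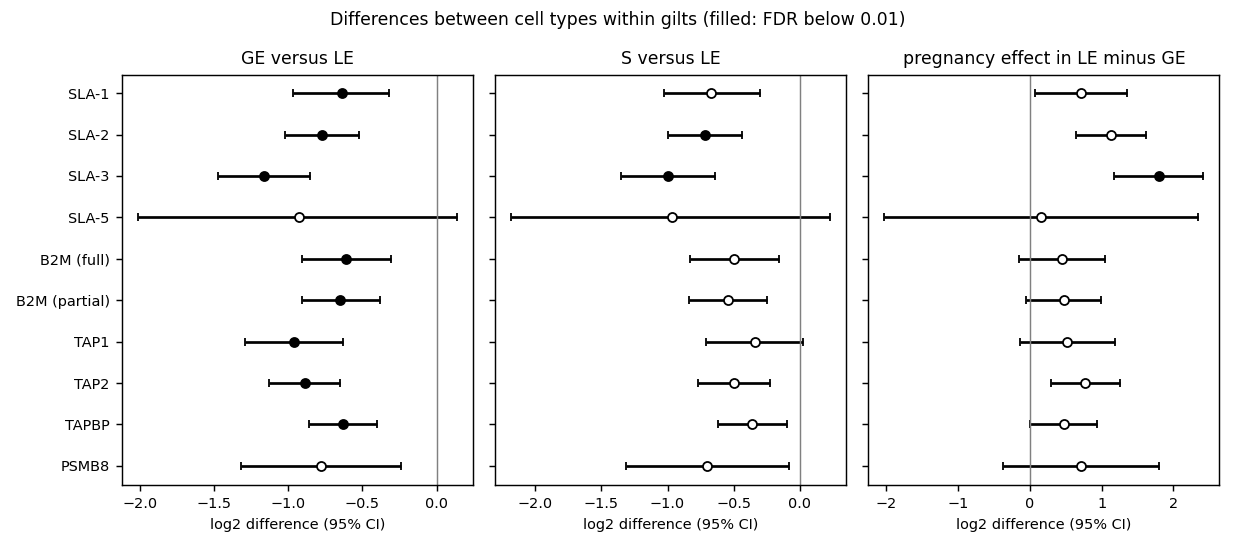
Points give log2 differences with 95% confidence intervals for GE against LE, S against LE, and the effect of pregnancy in LE minus that in GE, for the 10 member gene IDs listed for all 3 cell types, with filled points at an FDR below 0.01. All points of the first 2 panels lie left of 0, and in the last panel SLA-3 at 1.80 is the filled point.

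Between LE and S no member was called for a different effect of pregnancy. SLA-3 had the largest positive difference (1.05, SE 0.32, 95% confidence interval 0.35 to 1.75, FDR 0.174), and those of SLA-1 (-0.18, SE 0.34) and TAP2 (-0.07, SE 0.25) were near 0. The background of calls was 0.0188%. Between GE and S no gene at all was called (0%), with 4 of 10 members (SLA-1, SLA-2, SLA-3 and TAP2) at an unadjusted p value below 0.05, against 9.90% of all genes, and these 4 with differences from -0.92 to -0.75.

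Among the remaining genes of the pathway, the proteasome and its activators stood on the high side in pregnant LE. Of 20 fixed genes, 20 were listed and 20 had a log2 FC above 0 in LE (median 0.55), and 5 rose, namely PSMA3 (44.47 ± 5.653 to 102.6 ± 17.93 CPM, log2 FC 1.21), PSMA6 (1.17), PSMB4 (0.93) and PSMB2 (0.88), which are subunits of the catalytic core, and PSME4 (1.37), an activator. The share called, 5 of 20, stands beside 6.33% of all listed genes called with higher levels. The interferon-inducible members of this list, PSMB10 (log2 FC 0.39, SE 0.24, FDR 0.288), PSME1 (0.11, SE 0.16) and PSME2 (0.22, SE 0.18), were not among them. In GE and S none of the 20 was called (background 0.694 and 1.47%), with medians of 0.20 and 0.11. None had an unadjusted p value below 0.05 there (background 8.09 and 12.5%). A different effect of pregnancy in LE from that in GE or S was called for none of the 20 (background 0.395 and 0.0188%).

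Of the loading and trimming genes, 16 of 17 were listed. Of these, 1 was called in LE (background 10.0%), 2 in GE (background 0.694%) and none in S (background 1.47%), where edgeR gave 4 with an unadjusted p value below 0.05 (background 12.5%). PDIA3 (ERp57), which works beside tapasin in the loading complex, rose in LE from 417.3 ± 53.14 to 917.8 ± 59.99 CPM (log2 FC 1.14, SE 0.16, FDR 9.95e-04) and in GE from 477.3 ± 83.07 to 1195 ± 398.1 CPM (log2 FC 1.32, SE 0.27, FDR 0.216). In S its log2 FC was 1.30 (SE 0.37, FDR 0.236), and it was not called. HM13, the signal peptide peptidase, rose in GE (log2 FC 1.21, SE 0.25, FDR 0.216), so that both GE calls rest on the unadjusted p value. The chaperones CANX (log2 FC 0.45, FDR 0.0627) and CALR (0.23, FDR 0.425) and the tapasin relative TAPBPL (0.24, FDR 0.274) were not called in LE. The peptide trimming enzymes ERAP1 (58.32 ± 45.66 to 125.4 ± 7.458 CPM, log2 FC 1.10, FDR 0.157) and ERAP2 (48.36 ± 10.52 to 23.91 ± 15.81 CPM, log2 FC -0.97, FDR 0.0892) stood in opposite directions in LE, and neither passed the test.

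Of the transcriptional control list, 23 of 24 genes were listed for LE, and 4 rose and 1 fell. Against a background of 10.0% of all listed genes called (6.33% higher and 3.71% lower), 3 of the calls were receptor chains of the interferons, while the chain IFNGR1 was not called (29.57 ± 7.97 and 30.69 ± 3.418 CPM, log2 FC 0.06, FDR 0.884). IFNAR2 rose from 27.97 ± 6.002 to 219.9 ± 59.37 CPM (log2 FC 2.97, SE 0.25, FDR 6.48e-05), IFNAR1 from 161.3 ± 25.4 to 953.4 ± 285.3 CPM (2.56, SE 0.25) and IFNGR2 from 17.37 ± 3.29 to 141 ± 104.5 CPM (3.02, SE 0.46). IRF2, an interferon regulatory factor, rose with a log2 FC of 1.38 (SE 0.24, FDR 0.00309). IRF9, the DNA-binding part of the complex at the interferon-stimulated response element, fell from 85.05 ± 12.31 to 31.5 ± 11.59 CPM (log2 FC -1.40, SE 0.25, FDR 0.00312). NLRC5, the transactivator of class I genes, had 20.25 ± 5.18 CPM in control LE and 12.95 ± 2.964 CPM in pregnant LE (log2 FC -0.64, SE 0.27, FDR 0.119), and neither IRF1 (0.60, FDR 0.372) nor RFX5 (0.48, FDR 0.217) nor the class II transactivator CIITA (0.11, FDR 0.881) was called.

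In GE, IFNAR1 (log2 FC 1.07, SE 0.21) and IFNAR2 (0.98, SE 0.20) rose by the unadjusted p value with FDR of 0.204 and 0.216, and IRF2 (0.40, SE 0.24, FDR 0.719) was not called. These 2 receptor chains were the only calls among 22 listed control genes, beside a background of 0.694%. For NLRC5, the log2 FC was -0.76 (SE 0.56, FDR 0.764) in GE and 0.35 (SE 0.60, FDR 0.88) in S. None of the 23 listed control genes was called in S (background 1.47%), with 4 at an unadjusted p value below 0.05 (background 12.5%). Of 22 control genes tested for a different effect of pregnancy in LE and GE, 1 was called. This gene was IFNAR2, with the larger effect in LE. Among all genes 0.395% were called in either direction and 0.150% in this one.

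**Figure D5:**
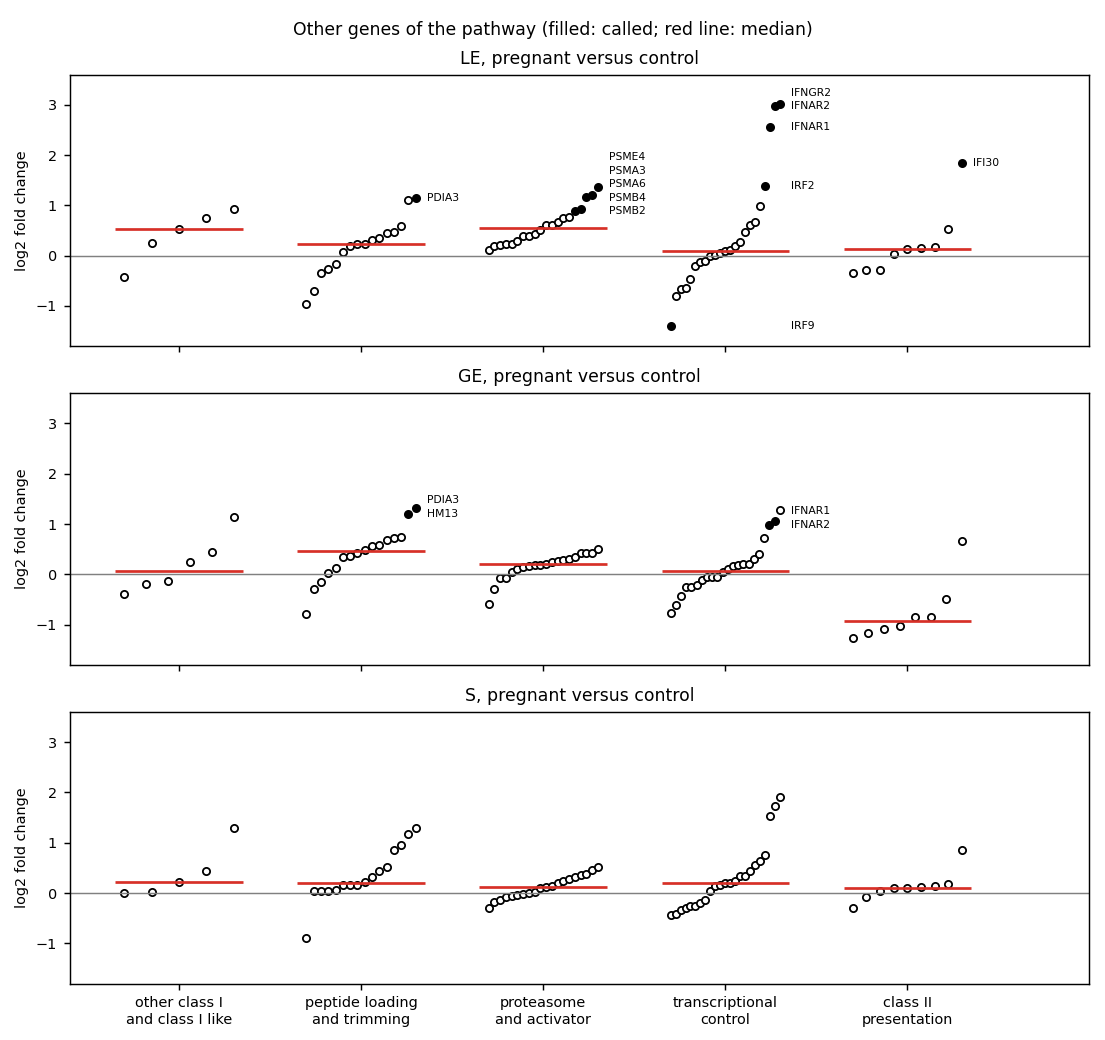
Each circle is 1 gene of 5 fixed lists, the vertical axis gives the log2 fold change of pregnant against control in LE, GE and S, filled circles are called and named, and the red lines are medians. All 20 proteasome genes lie above 0 in LE, and the class II genes lie mostly below 0 in GE with a median of -0.93.

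The non-classical heavy chains SLA-6, SLA-7 and SLA-8 were measured beside the members and were not called in any cell type. In LE their log2 FC were 0.75 (SE 0.36, FDR 0.164), 0.93 (SE 0.33, FDR 0.0678) and 0.53 (SE 0.45, FDR 0.439). SLA-7, at 17.33 ± 4.809 CPM in control and 34.32 ± 15.55 CPM in pregnant LE, did not overlap between the groups. FCGRT, the class I like receptor for IgG, had a log2 FC of -0.42 (FDR 0.258) in LE, and the class I like genes MR1 and CD1D were not listed. In all, none of the listed genes of this group was called in LE (5 genes), GE (6) or S (5) by edgeR (background 10.0, 0.694 and 1.47%). An unadjusted p value below 0.05 was found for 1, 1 and 0 of them (background 35.6, 8.09 and 12.5%).

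Class II genes, which present peptides from the endosomal route and are carried mainly by antigen-presenting cells, did not follow SLA-3 in LE. CD74 (log2 FC -0.28, SE 0.30, FDR 0.549) and SLA-DRA (-0.29, SE 0.29, FDR 0.514) were not called, and the only call among 9 listed genes, beside a background of 10.0%, was IFI30, a lysosomal reductase, which rose from 26.71 ± 4.698 to 97.1 ± 51.8 CPM (log2 FC 1.85, SE 0.36, FDR 0.00542). In GE 7 of 8 had a log2 FC below 0 and none was called, with 4 at an unadjusted p value below 0.05 (background 8.09%), among them SLA-DRA (120.4 ± 93.35 CPM in control and 50.39 ± 11.61 CPM in pregnant GE). In S none of 9 was called and 1 had an unadjusted p value below 0.05 (background 12.5%).

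The members did not all vary together from library to library. In deviations from the 6 group means over the 22 libraries, the correlation of a member with the mean of the others was highest for SLA-2 (0.780), SLA-1 (0.744) and the longer B2M model (0.709), and lowest for SLA-3 (0.347) and TAPBP (0.175). The genes with the pattern most like the mean of the members, among those listed for all 3 cell types, were DDX54 (r = 0.811), MSRB1, SNRPD2, ADAP2, PFN1, C1S, SLC3A2, LETM1, FJX1 and CD274 (r = 0.696), the last of which encodes the checkpoint ligand PD-L1. These correlations are descriptions, since libraries of 1 gilt share the animal and all libraries share the depth and the capture of their cells.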

How the data were processed

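RNA of LCM samples was sequenced from Ovation SoLo libraries with single reads. Per the study's methods, the authors clipped adapters, used Hisat2 to map to Sscrofa 11.1, discarded PCR duplicates recognized by random bases and filtered genes by CPM. The deposited tables, 1 per cell type, hold whole-number counts per gene without normalization. The tool used for counting, its use of strand and the CPM level are not given in the sources used here. Symbols, positions and sequences came from the NCBI RefSeq annotation of Sscrofa11.1 (release 106). The S libraries of gilts 03 and 06 were not analysed here.

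Each cell type was fitted over all listed genes with edgeR 4.0.16 (R 4.3.3), TMM normalization and the quasi-likelihood F test. Calls used the study's thresholds, 0.01 on the FDR for LE and 0.0021 on the p value before adjustment for the other cell types. The study took 0.0021 from its own LE results. In the LE fit here, CDH1 had an FDR of 0.00978 at a quasi-likelihood p value of 9.72e-04. The cut-off for GE and S was thus more lenient than that for LE. The joint fit had the gilt as a block (FDR below 0.01). The libraries of 1 number come from 1 gilt, and deviations of such libraries correlated with medians of 0.258 (LE and GE), 0.314 (LE and S) and 0.468 (GE and S). CPM are TMM-normalised, and errors are SD over gilts. Levels between genes and cell types, and within-gilt ratios, used the joint normalization. Named were all members, the called genes of the pathway lists and a short set of pathway genes given whether called or not. Other genes are named where a marker list or a count turned on them. The members and lists were chosen with earlier results of these data known. A gene of the transcriptional control list is not reported here, and the counts of that list are without it. Shared sequence was searched in windows of 50 bases.

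Alternatives were DESeq2 size factors (RLE), library size alone, filterByExpr, at least 10 counts in every library, the likelihood ratio and exact tests, DESeq2 1.42.0, an FDR of 0.05 or 0.01, heavy chains summed, no block, a random block (limma 3.58.1), only the 6 gilts with an S library, and leaving out each gilt. The fits were tested on simulated data in which 100 genes were changed by log2 1, 100 by log2 2 and no others. Of 100 genes changed by log2 1, 1 was called in LE, 17 in GE and 9 in S. Of 100 changed by log2 2, 66, 76 and 62 were called. False calls were 0, 22 and 21. For GE against LE, 46 of 100 changes of log2 1 and 94 of log2 2 were called. For the effect of pregnancy in LE minus GE the numbers were 0 and 40. In the data, 10.0% of the genes listed for LE were called, and 20.8% for GE against LE. An FDR cut-off is stricter where fewer genes change. The simulated numbers for LE and for GE against LE therefore do not give the sensitivity in the data. Calls in GE and S used a p value, so the simulated LE number is not comparable with theirs. The lack of a call does not show that a change of log2 1 was absent.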

Additional observations from a re-analysis of the deposited data

Results flagged for a closer look

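Of 42 groups of 4 libraries tested for a library far from the other 3, 3 were flagged, and chance flags about 1 group in 20. The longer B2M model had 1705 CPM in control LE of gilt 04, against 1252 to 1292 CPM in the other control LE libraries, and the shorter model 1036 CPM in the same library, against 791.6 to 816.5 CPM. Since the shorter model is contained in the longer one, these are 1 observation. SLA-5 had 22.71 CPM (45 counts) in pregnant GE of gilt 01, against 3.924 to 6.363 CPM in the other pregnant GE libraries.

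The effect of pregnancy on SLA-3 differed between LE and GE by 1.80 on the log2 scale, with opposite signs of the log2 FC in the separate fits (1.49 in LE and -0.38 in GE).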

How the results depend on the processing

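Of 1487 comparisons of a member value with its value under an alternative, 1364 kept direction and side of the threshold, 48 lost the call, 10 gained it and 65 changed sign. The sign changed for 28 of 91 values, and 0 of these had been called. In LE, 2 members were called with DESeq2 and with an FDR of 0.05 (SLA-3 and TAPBP), and 0 with the class I genes summed, also with 2 further models added, a sum chosen after seeing the data. Counts of calls in GE and S were 0 in every alternative that was run.

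The block decided part of the cell type results. Without the replicate block, 5 members were called for GE against LE, 0 for S against LE and 0 for the effect of pregnancy in LE minus GE, and with a random block 1 for S against LE and 0 for LE minus GE. With library size alone 0 were called for LE minus GE. The likelihood ratio test called 4 for S against LE and 2 for LE minus GE, DESeq2 and an FDR of 0.05 each called 5 and 2, and the 6 gilts with an S library gave 5 for GE against LE, 0 for S against LE and 0 for LE minus GE. Leaving out single gilts gave 5 to 8, 0 to 1 and 0 to 0 calls in the same order. The cause was not tested, beyond the fewer libraries of the last settings.

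Signs changed for the log2 values of the shorter B2M model in LE (-0.13 with library size alone, -0.06 with at least 10 counts), SLA-5 in LE (-0.34 in the 6 gilts), SLA-2 in S (-0.10 with library size alone, 0.00 with at least 10 counts), SLA-1 and SLA-5 for S against GE (SLA-1 0.12 without the block and 0.06 with a random block, SLA-5 0.00 with a random block), PSMB8 for S against GE (-0.05 in the 6 gilts), SLA-1 and TAP2 for LE minus S (0.12 and 0.06 without the block, 0.09 and 0.02 with a random one), TAPBP for GE minus S (0.04 with library size alone, 0.01 in the 6 gilts) and SLA-5 for LE minus GE (0.00 with the likelihood ratio test, -0.01 with DESeq2, -0.54 in the 6 gilts).

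Leaving out single gilts changed the sign in LE for SLA-5 (-0.20 to 1.48), B2M (-0.21 to 0.04 for the longer and -0.09 to 0.12 for the shorter model) and TAP1 (-0.02 to 0.44), in GE for SLA-1 (-0.55 to 0.43), SLA-5 (-0.51 to 0.97), TAP1 (-0.63 to 0.07) and TAPBP (-0.04 to 0.18), and in S for SLA-1 (-0.41 to 1.29), SLA-2 (-0.26 to 0.16), SLA-3 (-0.24 to 0.62), SLA-5 (-1.81 to 0.03), TAP1 (-0.18 to 0.08) and TAP2 (-0.11 to 0.35). For S against GE it did so for SLA-1 (-0.12 to 0.15), SLA-2 (-0.02 to 0.12), SLA-3 (-0.02 to 0.28), SLA-5 (-0.76 to 0.48) and PSMB8 (-0.04 to 0.32), for LE minus GE for SLA-5 (-0.84 to 0.75), for LE minus S for SLA-5 (-0.13 to 1.95), TAP1 (-0.03 to 0.42), TAP2 (-0.28 to 0.08) and PSMB8 (-0.89 to 0.09), and for GE minus S for SLA-5 (-0.81 to 1.69), the shorter B2M model (-0.31 to 0.03) and TAPBP (-0.23 to 0.22).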
